A study of Mus musculus with 8 samples.

Results

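Toll-like receptors are the germline-encoded sensors of microbial and damaged-cell molecules, and the genes described here are 8 of them (Tlr1, Tlr2, Tlr3, Tlr4, Tlr6, Tlr7, Tlr8 and Tlr9) with the adaptor Myd88 and the lipopolysaccharide co-receptor Cd14. They were chosen by gene symbol from the deposited table, and all 10 were found among its 55421 genes. All 10 also passed the filter on low counts, which left 17035 tested genes. Polyadenylated RNA was sequenced from the tibiae and femurs of 8 wild-type C57BL/6 males, 15 weeks old when treated, whose bones were spun to remove the marrow after the epiphyses were cut off. The DoxoR group of 4 mice had received doxorubicin, a chemotherapy drug that damages DNA, at 10 mg/kg into the peritoneum on day 0, and the CTRL group of 4 mice had been given saline vehicle. Bones were taken on day 30, and the tibiae and femurs of a mouse were pooled into 1 library. The study set this up as a model of senescence after chemotherapy.

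Signalling by these receptors follows a common plan. TLR1, TLR2 and TLR6 sit at the cell surface and recognise bacterial lipoproteins, with TLR2 paired to TLR1 or TLR6. TLR4 recognises lipopolysaccharide together with MD-2, and CD14 hands the lipid to them. TLR3, TLR7, TLR8 and TLR9 sit in endosomes and bind nucleic acids. The adaptor MyD88 serves all of them except TLR3, which uses TRIF, and the pathways lead to NF-κB and interferon regulatory factors. In bone these receptors are best known from macrophages, osteoclast precursors, neutrophils and dendritic cells, all of marrow origin. In whole bone, fewer cells of a type and less RNA per cell cannot be told apart.

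The spun bones were not free of marrow cells, so the receptors were read in a mixed tissue. The 8 libraries held between 23699525 and 35747083 counts. The 10 osteoblast and osteocyte markers, from Col1a1 to Fgf23, were all tested and summed to between 2540 and 8750 CPM (counts scaled to library size, with TMM factors) in DoxoR bones and between 3070 and 6050 CPM in CTRL bones. The 10 neutrophil markers summed to between 10500 and 21600 CPM in DoxoR and between 13100 and 23300 CPM in CTRL bones, and the 12 monocyte and macrophage markers to between 3210 and 4560 CPM and between 3430 and 5390 CPM. No marker of these lists averaged under 0.1 CPM. CTRL 3 stood apart on the first principal component, which held 34.3% of the variance, and had the lowest sum of the 6 skeletal muscle markers (3230 CPM, against 10400 to 26200 CPM in DoxoR and 17000 to 18900 CPM in the other CTRL bones).

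A stretch of sequence that Tlr1 and Tlr6 share bears on how far their values can be told apart. Both genes lie on the minus strand of chromosome 5 in GRCm38, Tlr1 at chr5:64924679-64933563 and Tlr6 at chr5:64952031-64960097, and each is coded in a single exon. Over bases 1294 to 2085 of the 2385 coding bases of Tlr1, 99.1% of 792 aligned bases were the same in Tlr6, against 61.1% over the rest of the coding sequence. The coding sequences held 6 identical runs of at least 50 bases, the longest of 229 bases. The window that starts with that run is shown for both genes, from chr5:64925466-64925765 for Tlr1 and chr5:64953757-64954056 for Tlr6, with the 2 differing bases in capitals.
Tlr1: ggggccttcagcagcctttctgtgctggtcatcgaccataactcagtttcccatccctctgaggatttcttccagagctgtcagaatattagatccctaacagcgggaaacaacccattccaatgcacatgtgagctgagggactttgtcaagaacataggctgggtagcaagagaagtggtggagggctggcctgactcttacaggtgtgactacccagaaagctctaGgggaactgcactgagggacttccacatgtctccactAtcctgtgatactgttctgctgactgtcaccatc
Tlr6: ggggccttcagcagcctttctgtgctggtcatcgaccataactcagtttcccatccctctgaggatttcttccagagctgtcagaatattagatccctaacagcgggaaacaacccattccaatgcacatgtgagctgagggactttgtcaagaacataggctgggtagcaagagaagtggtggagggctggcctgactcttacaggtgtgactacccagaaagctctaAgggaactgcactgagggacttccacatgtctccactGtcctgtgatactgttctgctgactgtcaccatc
A read that falls wholly in such a run fits both genes. Of all stretches of 50 bases in the annotated transcripts, 13.6% of those of Tlr1 also occur in Tlr6. No other pair among the receptor genes, Myd88 and Cd14 shared such a stretch, so within this set only Tlr1 and Tlr6 carry this uncertainty of assignment. Stretches shared with genes outside the set were not searched.

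Levels were compared between genes per kilobase of annotated exon. Tlr13, the mouse receptor for bacterial ribosomal RNA and not among the 10 genes, had the highest mean of the 12 receptor genes measured, at 13.0 ± 2.31 CPM per kb in DoxoR and 12.7 ± 1.90 CPM per kb in CTRL bones (SD, n = 4 each). Myd88 stood at 12.6 ± 2.85 and 11.2 ± 0.782 CPM per kb in DoxoR and CTRL bones and lay above every library of Tlr2, the next gene. Tlr2, Tlr7, Tlr8 and Tlr4 formed a group of like levels, with means over the 8 libraries of 7.07, 6.61, 6.56 and 6.15 CPM per kb, and neighbours in that order overlapped in range. Cd14 (4.10 CPM per kb) and Tlr1 (3.77 CPM per kb) also overlapped. Tlr6 at 2.42 CPM per kb lay below every library of Tlr1, and Tlr3 at 1.5 CPM per kb below every library of Tlr6. Tlr9 was the lowest of the 10, at 1.01 CPM per kb, although its range reached that of Tlr3.

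**Figure D1:**
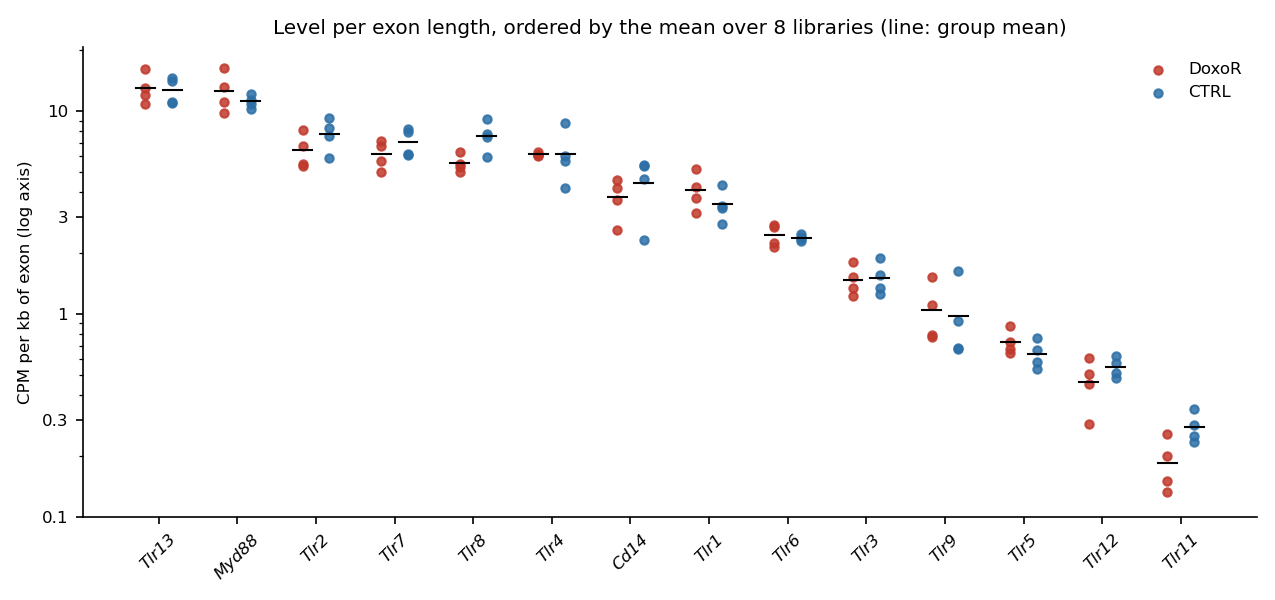
CPM per kilobase of exon (log axis) of the 12 receptor genes, Myd88 and Cd14, ordered by the mean over the 8 libraries; each point is a library, DoxoR left of CTRL, and lines are group means. Tlr13 and Myd88 lie highest, Tlr2, Tlr7, Tlr8 and Tlr4 overlap, and Tlr11 lies lowest.

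The comparison asked whether the expression of these genes differed 30 days after doxorubicin. None of the 10 genes passed the test. In edgeR's quasi-likelihood test, with Benjamini-Hochberg adjustment over all genes and a threshold of 0.05, 0 of 10 were higher and 0 were lower, as were 0% of all tested genes in either direction. DESeq2 and limma-voom also called 0 of the 10. At an unadjusted p under 0.05 edgeR gave 1 of the 10, Tlr8, against 5.36% of all genes in either direction and 3.23% with a lower value in DoxoR. None of the 10 had groups that did not overlap, against 3.59% of all genes in either direction and 1.95% with the DoxoR libraries lower. Log2 differences of DoxoR over CTRL lay between −0.45 and 0.23 with a median of −0.02, and that of all tested genes was 0.04; 6 of the 10 were below 0, against 42.8% of all genes. With library size as the only scaling, 53% of all genes were below 0 and still 6 of the 10.

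**Figure D2:**
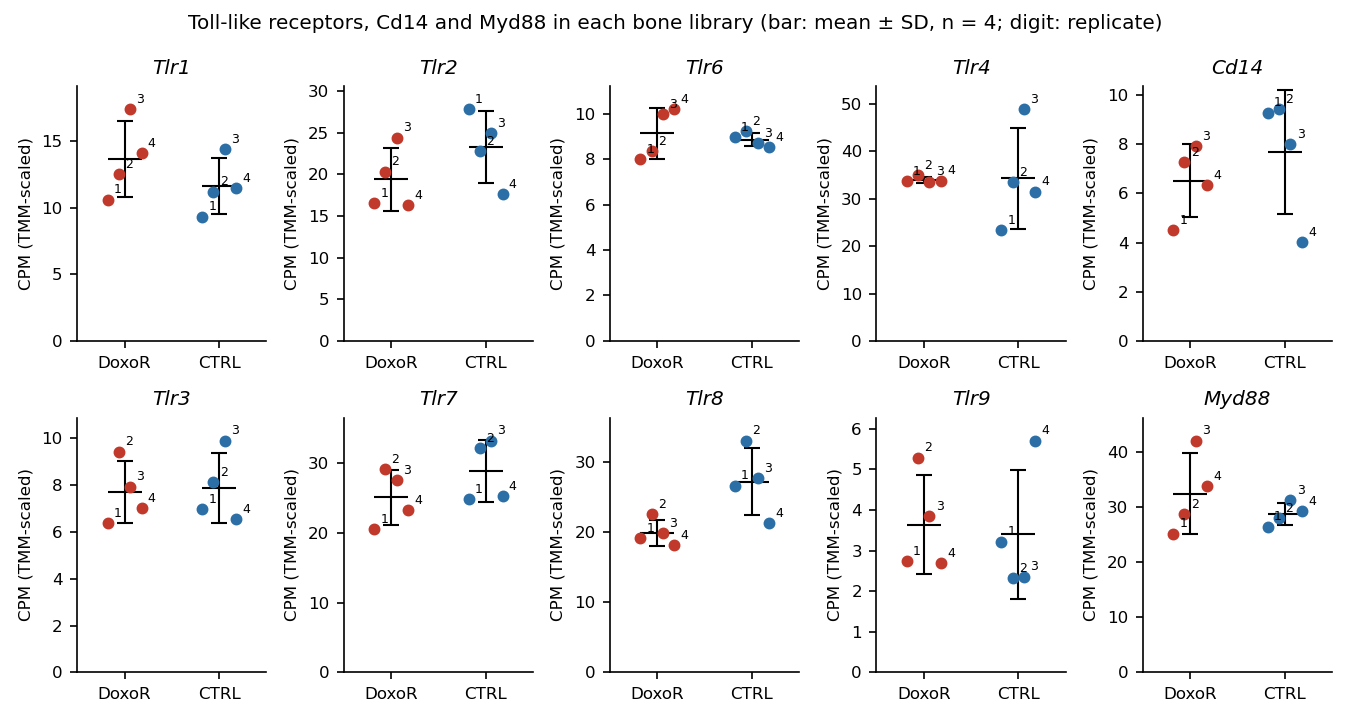
TMM-scaled CPM of the 10 genes in each library, DoxoR left of CTRL, with the mean ± SD of 4 libraries as bars and the replicate number beside each point. The groups overlap in all 10 panels; in Tlr8, DoxoR 2 at 22.5 CPM lies above CTRL 4 at 21.3 CPM and all other DoxoR points lie below all CTRL points.

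Among the lipoprotein receptors, Tlr2 (chr3:83836272-83841767), the partner common to both pairs, measured 16.5, 20.3, 24.4 and 16.3 CPM in DoxoR 1 to 4 and 27.8, 22.8, 24.9 and 17.6 CPM in CTRL 1 to 4. Its lowest libraries were DoxoR 4 and DoxoR 1, and CTRL 2 and CTRL 4 lay within the DoxoR range. The log2 difference was −0.26 ± 0.18 (SE), with a 95% confidence interval from −0.66 to 0.13 and an adjusted p of 0.856 in edgeR. It was −0.42 without DoxoR 3, −0.41 without CTRL 4 and −0.17 without CTRL 1. Tlr1, which pairs with TLR2 on triacylated lipoproteins, measured 10.6, 12.5, 17.4 and 14.1 CPM in DoxoR and 9.33, 11.2, 14.4 and 11.5 CPM in CTRL bones. Its highest library was DoxoR 3, and the log2 difference of 0.23 ± 0.18 (SE) had an interval from −0.18 to 0.64. It was 0.071 without DoxoR 3 and 0.14 without CTRL 1. Tlr6, which pairs with TLR2 on diacylated lipoproteins, measured 8, 8.35, 9.98 and 10.2 CPM in DoxoR and 8.96, 9.24, 8.71 and 8.54 CPM in CTRL bones. It varied least of the 10 genes, with its highest library 1.28 times its lowest, and its log2 difference was 0.05 ± 0.13 (SE; interval −0.23 to 0.33).

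The lipopolysaccharide receptor had nearly equal means, at 34 ± 0.638 CPM in DoxoR and 34.3 ± 10.7 CPM in CTRL bones (SD, n = 4 each). Tlr4 (chr4:66827584-66930284) measured 33.7, 35.0, 33.6 and 33.8 CPM in DoxoR and 23.3, 33.5, 48.9 and 31.5 CPM in CTRL bones. The 4 DoxoR libraries lay close together and CTRL 1 and CTRL 3 lay on either side of them, with a coefficient of variation of 1.87% in DoxoR and 31.1% in CTRL bones. The log2 difference was −0.01 ± 0.19 (SE; interval −0.44 to 0.41), and 0.17 without CTRL 3. Cd14 (chr18:36725067-36726798) measured 4.52, 7.27, 7.94 and 6.34 CPM in DoxoR and 9.29, 9.43, 8.02 and 4.02 CPM in CTRL bones. CTRL 4 was the lowest of all 8 libraries while the other CTRL libraries were the highest. Its log2 difference of −0.23 ± 0.27 (SE) had an interval from −0.84 to 0.38. It was −0.48 without CTRL 4 and −0.36 without DoxoR 3, and between −0.14 and −0.11 without CTRL 1, CTRL 2 or DoxoR 1.

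Of the endosomal receptors, Tlr8 had the smallest p of the 10 genes. Tlr8 lies on the X chromosome (chrX:167242696-167264329), next to Tlr7, and in humans encodes a receptor of single-stranded RNA. It measured 19.1, 22.5, 19.8 and 18.1 CPM in DoxoR and 26.6, 33, 27.7 and 21.3 CPM in CTRL bones. DoxoR 2 lay above CTRL 4, and the other DoxoR libraries lay below every CTRL library. Means were 19.9 ± 1.91 CPM in DoxoR and 27.1 ± 4.8 CPM in CTRL bones (SD, n = 4 each), a ratio of 0.733. The log2 difference was −0.45 ± 0.14 (SE; interval −0.77 to −0.13), with an unadjusted p of 0.0108 and an adjusted p of 0.825 in edgeR, and 222 other genes had a smaller p. The adjusted p was 0.407 in DESeq2 and lay between 0.36 (without CTRL 4) and 1.00 over the other settings and left-out libraries, with log2 differences between −0.58 and −0.19.

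Tlr7 (chrX:167304929-167330558), a receptor of single-stranded RNA, measured 20.5, 29.1, 27.6 and 23.2 CPM in DoxoR and 24.8, 32.1, 33.2 and 25.3 CPM in CTRL bones. The groups overlapped widely, with CTRL 1 and CTRL 4 inside the DoxoR range, and the log2 difference was −0.20 ± 0.15 (SE; interval −0.54 to 0.14), −0.31 without DoxoR 2 and −0.13 without DoxoR 1. Tlr3, the receptor of double-stranded RNA, measured 6.39, 9.43, 7.94 and 7.03 CPM in DoxoR and 6.97, 8.12, 9.90 and 6.55 CPM in CTRL bones, a log2 difference of −0.03 ± 0.18 (SE). Tlr9, the receptor of unmethylated CpG DNA, was the least precise, at 2.74, 5.29, 3.85 and 2.69 CPM in DoxoR and 3.22, 2.33, 2.36 and 5.71 CPM in CTRL bones. DoxoR 2 and CTRL 4 held its highest values, and the interval of its log2 difference of 0.10 ran from −0.64 to 0.84. An antisense gene, Gm45542, covers 381 exon bases of Tlr3; it had no count in any library but DoxoR 3, where it stood at 0.0329 CPM.

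Myd88 (chr9:119335934-119341411) measured 25.2, 28.7, 42.1 and 33.9 CPM in DoxoR and 26.5, 28.0, 31.3 and 29.3 CPM in CTRL bones. DoxoR 3 and DoxoR 4 lay above every CTRL library and DoxoR 1 below every one, so the DoxoR libraries spread more widely (7.35 CPM SD) than the CTRL libraries (2.01 CPM SD). The log2 difference was 0.17 ± 0.16 (SE; interval −0.18 to 0.52), 0.00042 without DoxoR 3 and 0.26 without DoxoR 1. Its exons share 290 bases with those of Acaa1a on the other strand (37.2 CPM in DoxoR and 33 CPM in CTRL bones). The libraries kept strand, but whether the counting used it was not stated, so part of these reads could belong to either gene.

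The rest of the family did not pass the test either. Tlr13 measured 46.7, 56.1, 69.9 and 51.7 CPM in DoxoR and 47.4, 62.5, 60.8 and 47.7 CPM in CTRL bones, a log2 difference of 0.04 ± 0.15 (SE). Tlr11, a receptor of parasite profilin, had the most negative estimate, at 0.605 ± 0.182 CPM in DoxoR and 0.908 ± 0.154 CPM in CTRL bones (SD, n = 4 each), from 10 to 33 counts a library. Its log2 difference was −0.56 ± 0.27 (SE; interval −1.18 to 0.05). Tlr5, the flagellin receptor, was at 3.49 ± 0.489 and 3.05 ± 0.474 CPM, and Tlr12 at 1.47 ± 0.423 and 1.74 ± 0.202 CPM, in DoxoR and CTRL bones (SD, n = 4 each). Summed over the 12 receptor genes, the level was 47.7 ± 5.98 CPM per kb in DoxoR and 51.0 ± 6.06 CPM per kb in CTRL bones. Tlr13 made up 27.2% of that sum in DoxoR and 24.8% in CTRL bones, and Tlr8 made up 11.7% ± 1.28 and 14.8% ± 1.82 (SD, n = 4 each).

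Of the 79 other genes of the pathway in 8 lists, the other 4 receptors among them, 76 were tested, and edgeR called 0 higher and 0 lower, with 3 at an unadjusted p under 0.05, a share no larger than the 5.36% of all genes; DESeq2 and limma-voom called 0. Their median log2 difference was −0.03, with 32 above and 44 below 0. Groups did not overlap for 4 of the 76, Ap3b1 and Ikbkg with DoxoR higher and Il1a and Il1rl1 with DoxoR lower, against 3.59% of all genes in either direction and 1.95% with DoxoR lower. Sarm1, Cxcl1 and Cxcl2 were not tested. Of the 9 co-receptor and ligand genes, 5 were above 0: Vcan, which encodes the matrix ligand versican, had a log2 difference of 0.43 ± 0.25 and Bgn (biglycan) one of 0.33 ± 0.25 (SE). Vcan was at 0.24 to 0.26 without CTRL 3, CTRL 4 or DoxoR 3, and Bgn at 0.1 without DoxoR 2, 0.21 without CTRL 2 and 0.22 without DoxoR 1. Ly96, which encodes the MD-2 partner of TLR4, measured 5.01 ± 0.670 CPM in DoxoR and 5.75 ± 2.25 CPM in CTRL bones (SD, n = 4 each), with CTRL 3 at 9.11 CPM above all other libraries. Lbp, the lipopolysaccharide carrier, was at 28.6 ± 5.95 and 26.3 ± 2.85 CPM.

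The genes that deliver and relay the signal had list medians between −0.02 and 0.03. Unc93b1, which carries the endosomal receptors from the endoplasmic reticulum, had a log2 difference of 0.02 ± 0.11, and the other genes of folding, trafficking and cleavage lay between −0.21 (Tmed7) and 0.17. Ap3b1, a subunit of the sorting adaptor AP-3, was at 0.14 ± 0.09 (SE), and its 4 DoxoR libraries, from 50.6 to 55.7 CPM, lay above its 4 CTRL libraries, from 46.5 to 50.1 CPM. Among the adaptors, Tirap (the bridge to MyD88) was at 0.05 ± 0.12, Ticam1 (TRIF) at 0.00 ± 0.11, Pik3ap1 at 0.11 ± 0.12 and Ticam2 (the bridge from TLR4 to TRIF) at −0.24 ± 0.20 (SE). Pik3ap1 was at 0.0097 without DoxoR 3, 0.059 without CTRL 2 and 0.065 without DoxoR 2, and Ticam2 at −0.41 without DoxoR 3 and −0.11 without DoxoR 1. The 16 kinases and ligases split into 8 above and 8 below 0, with Ikbkg (NEMO, the regulatory subunit of the IκB kinase) at 0.18 ± 0.10 and Tab1 at 0.32 ± 0.17 (SE), the last at 0.21 without CTRL 2 or DoxoR 3. Of the 8 transcription factors, Irf7, which acts below TLR7 and TLR9, was at 0.40 ± 0.18 (SE; unadjusted p 0.0533, adjusted p 0.856 in edgeR), and 0.16 without DoxoR 3; Rel was at −0.17 ± 0.13.

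None of the genes that the pathway induces or that restrain it passed the test. Of the 14 tested induced genes 11 were below 0, with a median log2 difference of −0.21, and of the 11 restraining genes 8 were below 0, with a median of −0.13, beside 42.8% of all genes below 0 (53% with library size as the only scaling). The most negative of the induced genes, Ccl2 at −1.71 ± 0.80 (SE), stood at 28.5 CPM in CTRL 1 and 11.5 CPM in CTRL 2. It lay between 1.19 and 6.52 CPM in the other libraries of both groups. Of the induced and restraining genes, Il1a, Il6 and Il1rl1 had an unadjusted p under 0.05. Il1a, a cytokine, measured 4.09, 6.22, 6.78 and 6.51 CPM in DoxoR and 8.43, 8.40, 12.4 and 8 CPM in CTRL bones, and every DoxoR library lay below every CTRL library. Its log2 difference was −0.66 ± 0.20 (SE), with an unadjusted p of 0.00892 and an adjusted p of 0.825 in edgeR. Il6 was scarce, at 0.408 ± 0.125 CPM in DoxoR and 0.857 ± 0.432 CPM in CTRL bones (SD, n = 4 each), and CTRL 1 held its highest value at 1.46 CPM; the log2 difference of −1.05 ± 0.40 (SE) was −0.67 without it. Il1rl1, the interleukin-33 receptor ST2, listed here for its inhibition of TLR signalling and also a marker of mast cells and type 2 lymphoid cells, measured 10.9, 13.9, 15.6 and 10.4 CPM in DoxoR and 15.7, 17.7, 21.8 and 16.8 CPM in CTRL bones. Its groups did not overlap, and the log2 difference was −0.50 ± 0.17 (SE; unadjusted p 0.0126, adjusted p 0.856 in edgeR). Tnfaip3, which encodes the ubiquitin-editing enzyme A20, was at −0.15 ± 0.11 (SE).

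**Figure D3:**
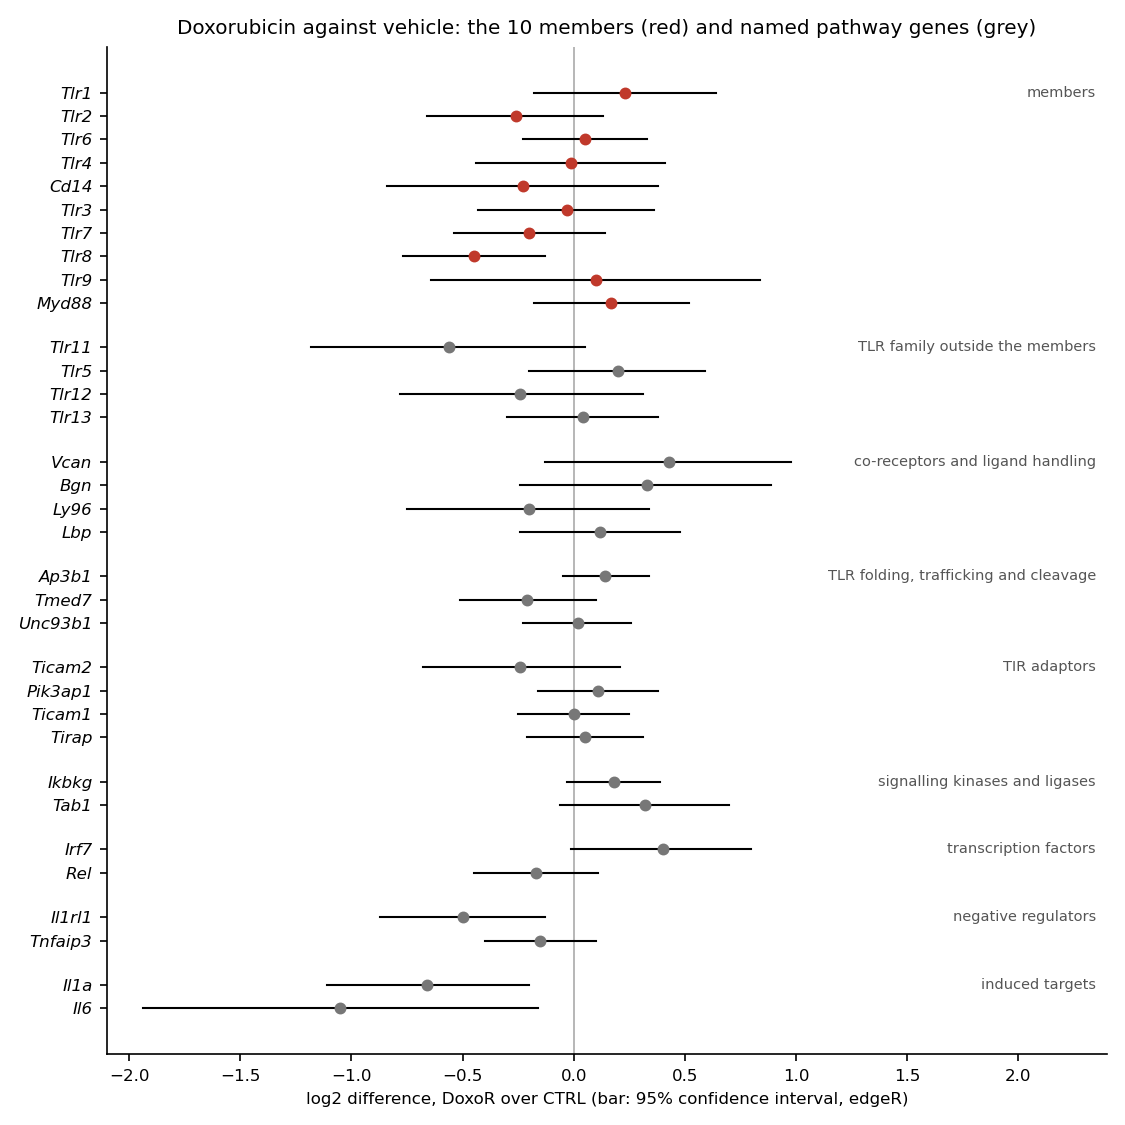
Log2 difference of DoxoR over CTRL with its 95% confidence interval from edgeR for the 10 genes (red) and the named pathway genes (grey), grouped by role. All intervals include 0 except those of Tlr8, Il1rl1, Il1a and Il6, and no gene passed the threshold after adjustment over all 17035 genes.

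Within the libraries the 10 genes did not vary as 1 block. Pearson correlations of log2 CPM over the 8 libraries, given as a description, were above 0 in 31 of the 45 pairs, with a median of 0.19. A mark of 0.7, chosen after the values were seen, was passed by 5 pairs. Tlr1 and Myd88 had the highest value (0.92), followed by Tlr3 and Tlr7 (0.86), Tlr2 and Cd14 (0.82), Tlr6 and Myd88 (0.76) and Tlr7 and Tlr8 (0.73). Without CTRL 3 these were 0.95, 0.79, 0.81, 0.78 and 0.69, and with the group means taken out 0.91, 0.93, 0.83, 0.76 and 0.67. Tlr9 stood apart, with no correlation above 0.09 to any of the others, and none above 0.22 (Tlr3) without CTRL 3. The libraries share their depth and marrow content, which such values also reflect.

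Myd88, Tlr1 and Tlr6 followed the neutrophil markers, with correlations of 0.84, 0.79 and 0.79 to the mean log2 CPM of the 10 markers, and 0.88, 0.77 and 0.92 without CTRL 3. They ran against the osteoblast and osteocyte markers, at −0.75, −0.70 and −0.76. Tlr6 also ran against the B lymphoid markers, at −0.75 (−0.82 without CTRL 3), where Myd88 was at −0.21 and Tlr1 at 0.05. Tlr7 and Tlr8 followed the dendritic markers, at 0.92 and 0.84 (0.88 and 0.86 without CTRL 3), and Tlr8 ran against the osteoclast markers at −0.75. Tlr4 had its highest values with the monocyte and macrophage markers, at 0.67, which was 0.27 without CTRL 3. Tlr9 was highest with the endothelial markers, at 0.85 (0.86 without CTRL 3), and its value with the monocyte and macrophage markers was 0.23, or 0.82 without CTRL 3. Tlr7, Tlr3 and Tlr2 also followed the T and NK cell markers, at 0.87, 0.76 and 0.73. Tlr3, Tlr7 and Tlr4 ran against the skeletal muscle markers, at −0.81, −0.75 and −0.71. Without CTRL 3, the library lowest in those markers, the values were −0.70, −0.69 and −0.13. Among 14783 other genes of at least 1 CPM, Pgam1, a glycolytic enzyme, was among those most like Myd88 (0.989). The nearest to Tlr1 were Tspyl3 (0.980) and Rnd1 (0.980), to Tlr7 Klra1 (0.981) and Ipo11 (0.979), to Tlr8 Tubb2a (0.976) and Sowahc (0.964), and to Tlr4 P2ry10b (0.985) and Nsun6 (0.949). For Tlr2 they were Il10ra, the receptor of an inhibitory cytokine (0.971), and Ythdf2 (0.950), for Cd14 Ythdc2 (0.952) and Washc2 (0.942), for Tlr3 Ms4a4d (0.950) and Tmem168 (0.949), for Tlr6 Nub1 (0.973) and Parl (0.962), and for Tlr9 Dazap1 (0.973) and Trim28 (0.971). With 8 libraries and so many genes, values of this size are found for each of the 10. By Spearman's rank correlation, Tlr4 and Nsun6 stood at only 0.48, and the other pairs at 0.83 or above.

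**Figure D4:**
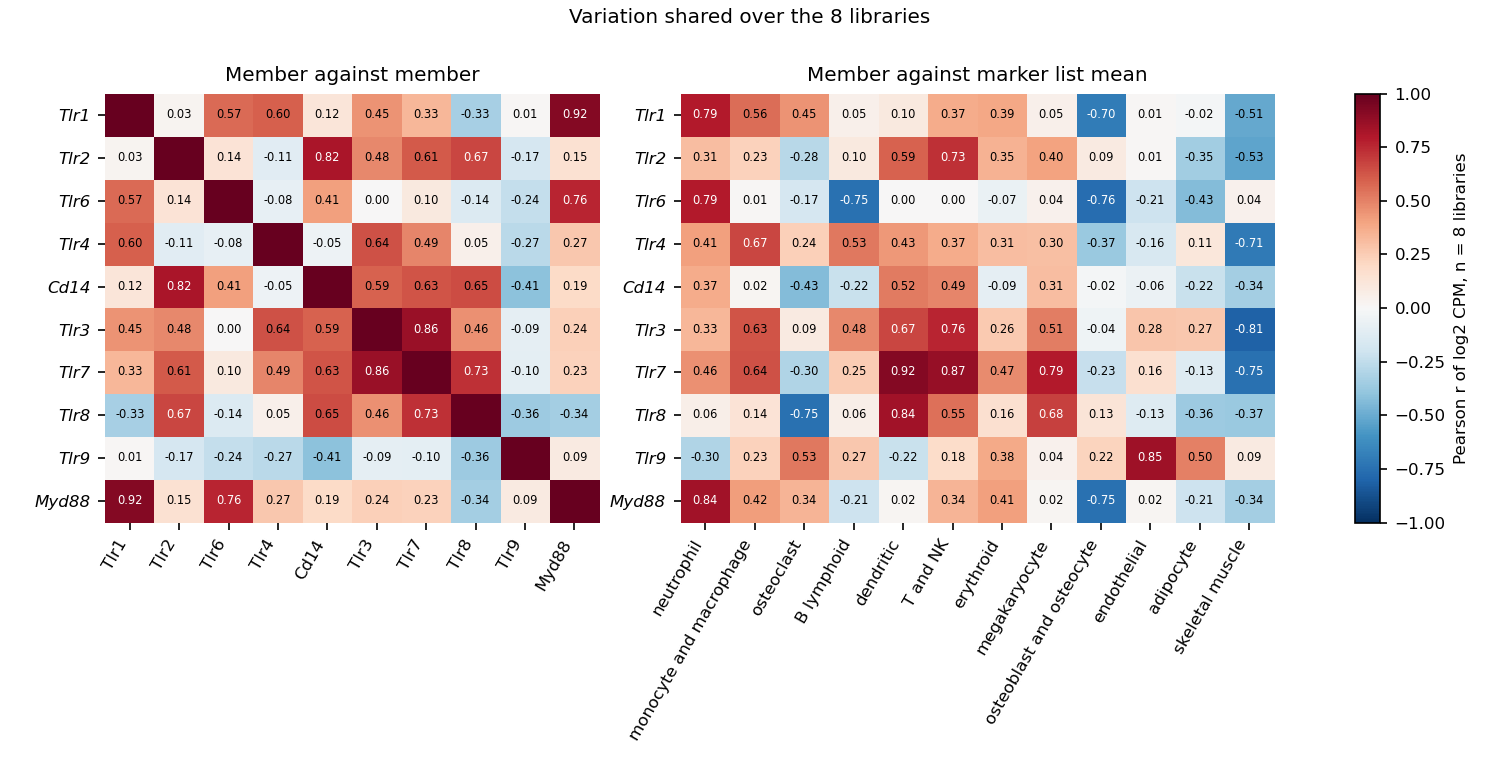
Pearson correlation of log2 CPM over the 8 libraries between the 10 genes (left) and between each gene and the mean log2 CPM of each marker list (right), from blue at −1 to red at 1. Myd88, Tlr1 and Tlr6 are red in the neutrophil column, and Tlr7 and Tlr8 in the dendritic column.

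None of the 8 tested dendritic markers passed the test in edgeR, where the smallest adjusted p was 0.703 and 3 had an unadjusted p under 0.05. Their mean log2 CPM was 4.209, 4.416, 4.381 and 4.297 in DoxoR and 4.423, 4.625, 4.692 and 4.456 in CTRL bones, without overlap, while their summed CPM overlapped, at 281 to 322 CPM in DoxoR and 300 to 381 CPM in CTRL bones. Of the 8, 6 were below 0 and 2 above. The largest difference was that of Clec9a, a receptor of cross-presenting dendritic cells, at 13.8 ± 2.88 CPM in DoxoR and 25.0 ± 6.87 CPM in CTRL bones (SD, n = 4 each). Siglech, a marker of plasmacytoid dendritic cells, was at 18.7 ± 2.45 and 23.4 ± 2.33 CPM, while Bst2 and Itgax had log2 differences of 0.25 and 0.07. With the dendritic mean as a covariate, which leaves little to separate it from the treatment, the log2 difference of Tlr8 was −0.19, that of Tlr7 was 0.24 and that of Il1a was −0.19. The part of dendritic cells in the values of Tlr8 cannot be told apart from that of the treatment. The 8 megakaryocyte markers, which Tlr7 followed at 0.79 and Tlr8 at 0.68, were all below 0, against 42.8% of all genes. They summed to between 799 and 1260 CPM in DoxoR and between 1210 and 1920 CPM in CTRL bones. Of the 9 osteoclast markers 8 were above 0, with sums between 1340 and 1690 CPM in DoxoR and between 868 and 1680 CPM in CTRL bones. The part of these cells in the values of Tlr7 and Tlr8 was not tested. The neutrophil markers, which Myd88 followed, overlapped between the groups.

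**Figure D5:**
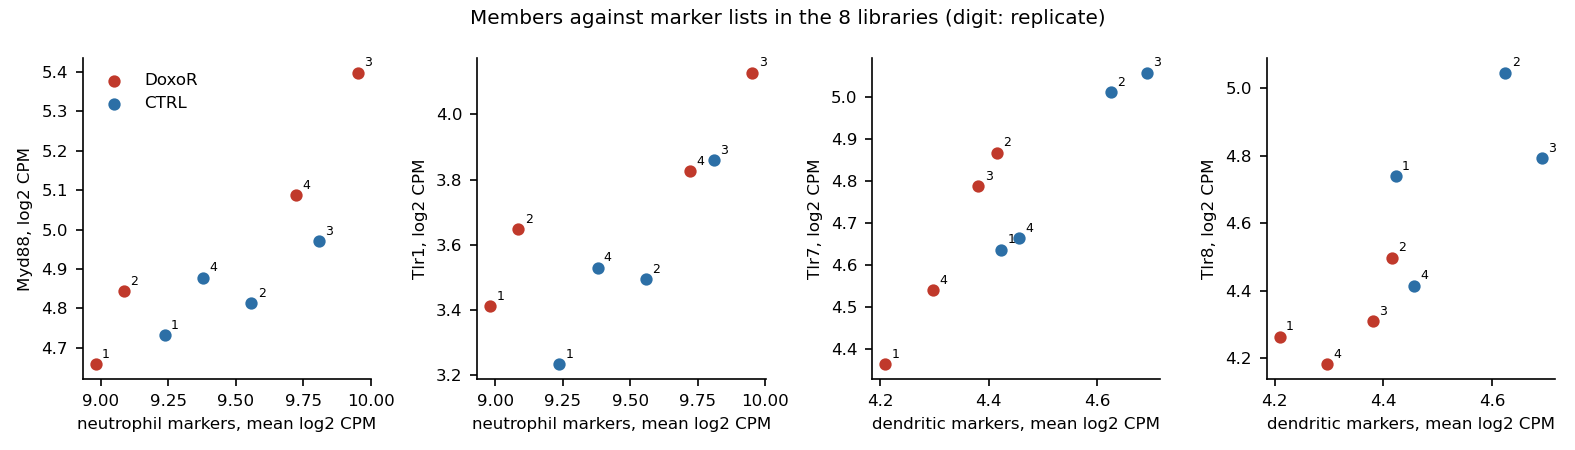
Log2 CPM of Myd88 and Tlr1 against the mean log2 CPM of the neutrophil markers, and of Tlr7 and Tlr8 against that of the dendritic markers, with a point per library (DoxoR red, CTRL blue, replicate number beside it). The groups interleave along the neutrophil axis, and all 4 DoxoR points lie left of the CTRL points along the dendritic axis.

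Promoter windows of the RefSeq tables (GRCm38.p6) were at hand for 7 of the 10 genes; Tlr4, Tlr7 and Cd14 had none. The windows nearest the annotated start of Tlr1, Tlr8 and Tlr9 are shown since they were the ones that held the PU box GAGGAA, searched on both strands and set in capitals. This short sequence lies at the core of sites for PU.1, a transcription factor of myeloid and B cells. It occurs in 28.3% of the 32851 windows of this length in the table, so its presence in 3 of the 7 genes is a description of the letters and nothing more. The windows are chr5:64933509-64933808 on the minus strand for Tlr1, chrX:167264280-167264579 on the minus strand for Tlr8 and chr9:106222348-106222647 on the plus strand for Tlr9.
Tlr1: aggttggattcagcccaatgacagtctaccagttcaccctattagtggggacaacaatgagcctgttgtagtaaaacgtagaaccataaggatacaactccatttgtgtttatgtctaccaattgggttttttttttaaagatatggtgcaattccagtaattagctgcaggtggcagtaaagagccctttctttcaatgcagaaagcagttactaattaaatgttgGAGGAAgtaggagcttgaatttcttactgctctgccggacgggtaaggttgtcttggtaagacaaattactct
Tlr8: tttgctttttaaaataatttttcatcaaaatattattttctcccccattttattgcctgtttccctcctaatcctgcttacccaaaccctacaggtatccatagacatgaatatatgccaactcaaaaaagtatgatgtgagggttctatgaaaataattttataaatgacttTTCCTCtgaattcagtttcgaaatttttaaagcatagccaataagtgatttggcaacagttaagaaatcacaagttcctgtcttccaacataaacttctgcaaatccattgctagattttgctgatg
Tlr9: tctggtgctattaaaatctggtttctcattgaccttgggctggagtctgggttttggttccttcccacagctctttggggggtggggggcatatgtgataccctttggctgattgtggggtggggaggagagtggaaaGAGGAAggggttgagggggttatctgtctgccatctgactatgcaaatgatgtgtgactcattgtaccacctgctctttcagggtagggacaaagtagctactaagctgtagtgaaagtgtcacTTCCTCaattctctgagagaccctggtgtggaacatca
The PU box was read on the given strand in Tlr1, on the other strand in Tlr8 and on both strands in Tlr9. The core letters of an interferon-stimulated response element occurred in the Myd88 window, which lies 1392 bases from the annotated start of that gene. They also occurred in the window of Tlr6 farther from its annotated start, at 930 bases, and in 3.44% of all windows. For κB, only a fixed sequence without variable letters was searched. That sequence occurred in none of the windows of the 10 genes and in 0.155% of all windows. Other forms of the κB site were not searched, so the windows cannot be said to lack κB sites.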

How the data were processed

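The deposited values were taken to be expected counts per gene from the authors' pipeline; all were whole numbers, and rounding left them as they were. STAR 2.5.3a and RSEM 1.3.0 are listed, without roles, in the submitters' processing notes, as is the build GRCh38, which is human, while the identifiers are of mouse genes. No source used here states the annotation release, the strand setting in counting or a filter. Per the labels' protocols, libraries were stranded poly-A libraries from 500 ng of RNA with 15 cycles of PCR and molecular identifiers in the adaptors; whether the counts are of identifiers or of reads is not given. All 8 columns were matched to samples by their labels, and chi-square per degree of freedom between libraries (28.8 to 291) showed no library deposited again.

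Genes were kept by filterByExpr with a minimum count of 10 and a minimum total of 15, counts were scaled by TMM, and the two-sided quasi-likelihood test of edgeR 4.0.16 in R 4.3.3 was run in its robust form, adjusted by Benjamini-Hochberg over all tested genes. SE and 95% confidence intervals come from the F statistic. Log2 CPM used a prior count of 2. The test was tried on simulated data. Of the identifiers, 54587 matched GENCODE M21 (GRCm38) with their version, all 10 genes among them; it gave positions, exon lengths and transcript sequences. DESeq2 1.42.0, limma-voom (limma 3.58.1), other scalings and filters, the replicate number as a block, marker covariates and each library left out were alternatives.

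The 10 genes and the pathway and marker lists were chosen with earlier results of these data known. Named pathway genes are those of the smallest 2 p-values in each list, a fixed 5 (Ly96, Lbp, Unc93b1, Ticam1, Tirap) and the other Tlr genes. Ccl2, Clec9a, Siglech, Bst2 and Itgax were chosen after their values were seen. So were CTRL 3 as the library to leave out of correlations, and the dendritic covariate. The precision is set by 4 mice a group, and for Tlr11 and Tlr12 also by counts.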

Additional observations from a re-analysis of the deposited data

Results flagged for a closer look

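In groups of 4 libraries, the 10 genes and the named pathway genes were checked for a library far from the other 3 by Dixon's ratio of gap to range, over 66 groups of 33 genes. Chance gives about 1 in 20 groups, and 3 were found. Ap3b1 in CTRL 2 stood at 50.1 CPM, above the other CTRL libraries at 46.5 to 46.8 CPM. Il1a in CTRL 3 stood at 12.4 CPM, above 8 to 8.43 CPM in the others. Ly96 in CTRL 3 stood at 9.11 CPM, above 4.57 to 4.73 CPM in the others. None of the 10 genes was among them.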

How the results depend on the processing

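None of the 10 genes passed the threshold under any of the 19 alternatives, and neither did a pathway gene. Over all genes, 1 was called with no filter on low counts and 29 with DESeq2, where 1982 adjusted p-values were not given, against 0 in edgeR. The estimates of Tlr1, Tlr2, Tlr8 and Myd88 kept their sign throughout, but not their size. With the marrow covariate, the mean of the neutrophil and erythroid markers, Tlr1 was 0.37 (unadjusted p 0.00998 in edgeR), against 0.23. Myd88 was 0.27 (unadjusted p 0.0233 in edgeR), against 0.17. In that setting 3 of the 10 had an unadjusted p under 0.05, against 6.9% of all genes. Tlr1 was 0.36 with the monocyte and macrophage covariate. With the dendritic covariate Tlr1 was 0.63, Myd88 0.38, Tlr2 −0.079 and Tlr8 −0.19. With 1 library left out, Lbp ran from 0.0041 to 0.23, Rel from −0.27 to −0.072, Tlr5 from 0.075 to 0.27, Tlr12 from −0.42 to −0.087, Tmed7 from −0.32 to −0.13 and Tnfaip3 from −0.25 to −0.12. The cause of the sign changes that follow was not tested. With limma-voom Tlr4 was 0.034 and Ticam1 0.002, with library size as the only scaling Unc93b1 was −0.031, and without haemoglobin genes Unc93b1 was −0.0058. With a marrow covariate Tlr3 was 0.019, Tlr4 0.1 and Ticam1 0.023, and with a monocyte and macrophage covariate Tlr3 was 0.057, Tlr4 0.15, Ly96 0.013 and Ticam1 0.031. With the dendritic covariate, chosen after seeing the data, Tlr3 was 0.45, Tlr4 0.49, Tlr7 0.24, Tlr9 −0.06, Cd14 0.18, Tmed7 0.073, Ticam2 0.24, Ly96 0.39 and Tlr12 0.0062. With 1 library left out, log2 differences ran from −0.18 to 0.061 for Tlr3, from −0.16 to 0.17 for Tlr4, from −0.022 to 0.085 for Tlr6, from −0.16 to 0.45 for Tlr9, from −0.11 to 0.1 for Tlr13, from −0.062 to 0.06 for Unc93b1, from −0.31 to 0.079 for Ly96, from −0.032 to 0.082 for Tirap and from −0.059 to 0.038 for Ticam1. Genes at an unadjusted p under 0.05 numbered 913, and 1784 without CTRL 4.

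The replicate numbers were not shown to pair the mice: deviations of same-numbered libraries correlated at 0.34, −0.27, 0.43 and 0.09. With the replicate number as a block, edgeR called 0 genes, 1466 had an unadjusted p under 0.05, Tlr8 was at −0.44 (adjusted p 0.467), Tlr4 at 0.036 and Ticam1 at 0.005.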
